A study of Mus musculus with 2 samples.

Results

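Nuclear hormone receptors are transcription factors that bind small lipid-soluble ligands, and 44 genes of the family were described in adult mouse hippocampus. The members were the protein-coding genes whose symbols carry a family root (Nr0 to Nr6, Esr, Esrr, Thr, Rar, Rxr, Ppar, Ror, Vdr or Pgr), taken from 22028 protein-coding and 55536 annotated genes. The symbol pattern does not take Hnf4a, Hnf4g or the Nr1i genes, so the family is not complete here. All RNA came from male 5xFAD/CAST mice aged 8 to 10 months, and the tissue label reads layer of hippocampus. 5xFAD animals carry mutated human transgenes, APP among them, under a Thy1 promoter, which drives expression in neurons, and CAST is a wild-derived inbred strain. Both libraries carry this background, and mice without the transgenes were not analysed here. The 2 libraries, called replicate 1 and replicate 2, form 1 group, so no condition was compared. The labels call them biological replicates but give both 1 donor identifier, so the difference between them may be technical alone. SDs reflect how far the 2 samples differ, and p-values set that difference against counting error only.

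Most receptors of this family share a zinc-finger DNA-binding domain and a ligand-binding domain. Some steroid receptors wait in the cytoplasm with heat-shock chaperones and enter the nucleus when hormone binds. Thyroid hormone, retinoid and oxysterol receptors instead sit on DNA as partners of a retinoid X receptor. Without ligand many recruit corepressors, and with ligand they exchange these for coactivators. In the hippocampus the corticosteroid receptors are known for stress signalling, thyroid hormone and retinoid receptors for development and plasticity, and the NR4A receptors as genes induced by neuronal activity.

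Promoter sequence is shown for 4 receptors that differed between the libraries, the 3 NR4A genes and Rarb. All 3 NR4A genes were lower in replicate 1 than in replicate 2, and their promoters are shown because each holds 4 copies of the half-site TGACG, which cyclic AMP response element binding proteins recognise. Sequences are RefSeq promoters of the C57BL/6J reference (GRCm38.p6) and run 5′ to 3′ on the gene's strand. The animals also carry CAST alleles, whose sequence was not read. Capitals mark the half-site on either strand, so CGTCA is the same motif read from the other strand. The stretches are chr15:101266596-101266845 (plus strand) for Nr4a1, chr2:57124004-57124253 (minus strand) for Nr4a2 and chr4:48045055-48045164 (plus strand) for Nr4a3.
Nr4a1: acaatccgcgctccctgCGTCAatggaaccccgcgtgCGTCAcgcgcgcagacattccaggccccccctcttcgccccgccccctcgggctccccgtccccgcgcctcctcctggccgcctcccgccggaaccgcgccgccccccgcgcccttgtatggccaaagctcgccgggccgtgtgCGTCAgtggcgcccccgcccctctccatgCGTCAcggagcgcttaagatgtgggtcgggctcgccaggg
Nr4a2: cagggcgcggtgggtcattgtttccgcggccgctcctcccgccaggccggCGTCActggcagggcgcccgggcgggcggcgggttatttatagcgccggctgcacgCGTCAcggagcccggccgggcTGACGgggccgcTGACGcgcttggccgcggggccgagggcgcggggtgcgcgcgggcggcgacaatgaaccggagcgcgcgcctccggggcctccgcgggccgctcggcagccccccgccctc
Nr4a3: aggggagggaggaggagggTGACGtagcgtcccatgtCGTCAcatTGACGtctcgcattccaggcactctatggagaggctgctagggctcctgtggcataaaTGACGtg

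Within the 250 bases before the RefSeq start, the half-sites began 233, 213, 69 and 40 bases upstream in Nr4a1. They began 200, 144, 123 and 111 bases upstream in Nr4a2 and 231, 213, 205 and 147 bases upstream in Nr4a3. The GENCODE genes used for counting begin at 101254269 for Nr4a1 and 48045153 for Nr4a3. The whole Nr4a1 stretch, and the Nr4a3 site 147 bases before the RefSeq start, therefore lie inside those genes. Across 32851 mouse promoters of the same length, 17.8% held TGACG at least once and 0.137% (45 promoters) held it at least 4 times. The 40 members in the table have 60 promoters, of which 13 (21.7%) held the half-site, and the 3 NR4A promoters were the ones with 4 copies. The whole palindrome TGACGTCA was found in 1.55% of promoters and, among members, in Nr2e1. The motif was chosen after the values were seen, and a match shows letters in a window, not binding.

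The Rarb stretch holds a direct repeat of GTTCA, the kind of element known to bind retinoic acid and retinoid X receptor pairs. It is shown because Rarb, Rxrg and Nr1h3 were the members most unequal between the libraries. The 30 bases lie at chr14:16575506-16575535 (minus strand), and capitals mark the repeat, which begins 52 bases before the start.
Rarb: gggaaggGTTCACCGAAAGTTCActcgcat
GTTCA followed by 6 bases and GTTCA again, read on both strands, was found in 0.067% of promoters (22 promoters) and among members in Rarb alone. This repeat too was chosen after the values were seen, with Rarb in view, so its presence there was not a test. The half-site AGGTCA occurred in 4607 of the 32851 promoters and in 11 of the 60 member promoters (18.3%), among them those of Rxra, Rxrg, Thrb and Nr1d2.

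The libraries held 26128897 and 28689423 expected counts in replicates 1 and 2, so 0 counts leave room for 3 (0.115 CPM in replicate 1 and 0.105 CPM in replicate 2). Markers of hippocampal subfields were detected in full, 15 of 15, with the CA1 marker Wfs1 at 57.4 and 63.7 TPM and the dentate gyrus marker Prox1 at 25.9 and 31.2 TPM. Markers of some neighbouring tissues were close in sum and those of others were unequal. The 10 cortical markers summed to 208 TPM in replicate 1 and 201 TPM in replicate 2, and the 9 thalamic markers to 93.2 and 85.1 TPM. The 12 striatal markers summed to 303 TPM in replicate 1, against 135 TPM in replicate 2, and the 12 choroid plexus markers to 1474 TPM, against 286 TPM. Of the choroid plexus sums, Ttr alone held 1151 TPM in replicate 1 and 174 TPM in replicate 2. The 12 hypothalamic markers summed to 51.2 TPM in replicate 1, against 4.31 TPM in replicate 2, where Hcrt, Oxt and Sim1 were listed at 0. In bulk tissue, fewer cells of a type and less RNA per cell cannot be told apart.

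Of the 44 members, 33 were detected, with TPM of at least 1 in both libraries, or 75%, beside 60.4% of all protein-coding genes. The authors' TPM values are scaled for length and depth, so genes can be set beside each other. The median member was 7.58 TPM in replicate 1 and 7.46 in replicate 2 (7.51 ± 0.0849, SD, n = 2), and the median protein-coding gene at 4.38 and 4.21 TPM. Among detected genes the medians were close, at 15.9 ± 1.05 TPM for the 33 receptors and 15.7 ± 0.23 TPM for 13294 protein-coding genes. Of the detected receptors, 19 averaged at least 10 TPM and 14 lay between 1 and 10 TPM. Thra alone held 41.9 ± 0.347% of the family's summed TPM.

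**Figure D1:**
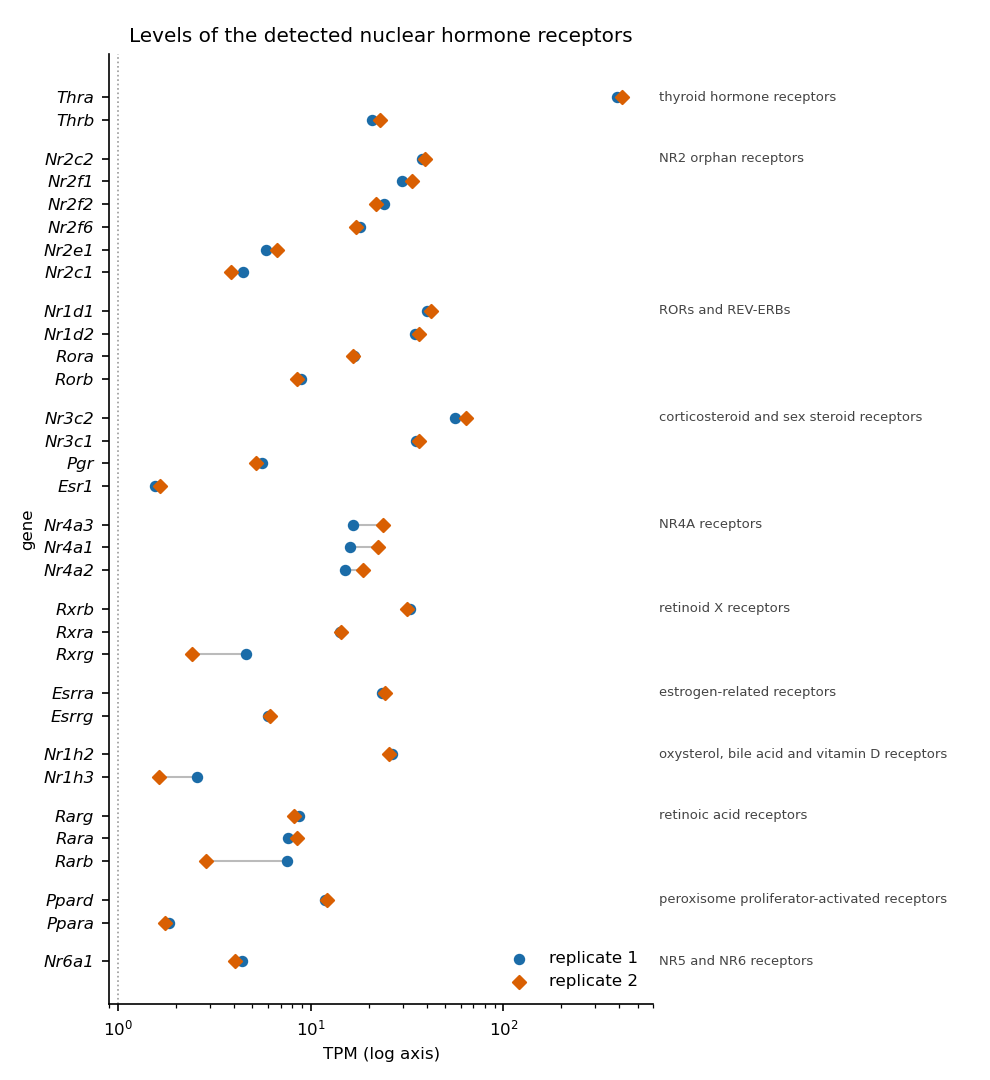
TPM of 32 of the 33 detected receptors on a log axis, 1 row per gene, grouped by role, with circles for replicate 1 and diamonds for replicate 2. Thra stands far to the right near 402 TPM, most pairs of points touch, and the widest gaps belong to Rarb, Rxrg, Nr1h3 and the NR4A genes.

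In the order of mean TPM, 14 of the 32 neighbouring pairs had ranges that did not overlap between the 2 libraries and 18 overlapped. The top ran Thra, Nr3c2, Nr1d1, Nr2c2 and Nr3c1, each separate from the next. In the deposited alignment-free table Nr2c2 (38.9 and 42.4 TPM) stood above Nr1d1 (36.2 and 39.9 TPM) in each library, so the order of these 2 was not set. Nr3c1 and Nr1d2 overlapped, as did every neighbouring pair from Esrra down to Rora. With 2 values per gene, an exact two-sided permutation test cannot go below p = 0.333, so this order was not tested.

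The corticosteroid receptors were among the highest members, and the mineralocorticoid receptor exceeded the glucocorticoid receptor. Nr3c1 encodes the glucocorticoid receptor, which responds to stress levels of corticosterone, and had 35.3 TPM in replicate 1 and 36.3 TPM in replicate 2. Nr3c2 encodes the mineralocorticoid receptor, which binds corticosterone at lower levels, and had 56.2 and 64.1 TPM (chromosome 8, 76899442 to 77245012, plus strand). The 2 genes did not overlap in level. The log2 ratio of Nr3c1 over Nr3c2 was -0.67 in replicate 1 and -0.82 in replicate 2 (-0.74 ± 0.11, SD, n = 2), so Nr3c2 was 1.68-fold higher. Expected counts behind these were 2915 and 3226 for Nr3c1, and 4561 and 5727 for Nr3c2.

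The size of that difference depended on which transcripts were counted. All 9 annotated Nr3c1 transcripts are protein-coding, so its coding share was fixed at 100% by the annotation. Of the 8 Nr3c2 transcripts 6 are, and Nr3c2-208, annotated for nonsense-mediated decay, took 15.0% and 11.8% of Nr3c2. Counting protein-coding transcripts alone could thus lower Nr3c2 but not Nr3c1. On protein-coding transcripts alone the log2 ratio of Nr3c1 over Nr3c2 was -0.50, and in the alignment-free table it was -1.18. There Nr3c2-205, a processed transcript of 350 bases, held 29.3 and 21.7 TPM in replicates 1 and 2, against 1.71 and 0.73 TPM in the alignment-based table. On protein-coding transcripts of the alignment-free table the ratio was -0.37. Nr3c2 was the higher gene in each of these settings.

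Nr3c1 reads were spread over several transcripts with the same coding region, and the leading one changed between libraries. Nr3c1-204 had 11.1 TPM in replicate 1 and 8.03 TPM in replicate 2, and Nr3c1-203 had 10.8 and 15.3 TPM, both coding for 792 residues. The alignment-free table showed the same change of leader, with 9.80 and 1.70 TPM for Nr3c1-204 and 8.71 and 19.0 TPM for Nr3c1-203. Nr3c2-204, coding for 980 residues, led its gene with 42.7% and 42.9% of the TPM. For Nr3c1 the sum over transcripts was steadier than its split.

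Sex steroid receptors were low. Pgr, the progesterone receptor, had 5.57 and 5.19 TPM, and Esr1, estrogen receptor alpha, had 1.57 and 1.66 TPM. Esr2, estrogen receptor beta, had 0.18 and 0.14 TPM, from 10 and 8 counts, and was not detected.

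Genes that supply or switch off steroid ligands were also read. Of 19 steroid metabolism genes, 11 were detected, and the ones at the top were Hsd17b12 (31.0 and 31.2 TPM), Hsd17b4 (26.2 and 22.9 TPM) and Hsd17b10 (22.1 and 23.5 TPM), dehydrogenases that act mainly on lipids. Hsd11b1, which regenerates active corticosterone, had 12.9 TPM in replicate 1 and 19.1 TPM in replicate 2. Hsd11b2, which inactivates corticosterone in kidney and so protects the mineralocorticoid receptor there, had 0 counts in both. All 14 steroid receptor chaperones were detected, led by Hspa8 (698 and 726 TPM), Hsp90ab1 (640 and 699 TPM) and Hsp90aa1 (357 and 432 TPM). Among 16 glucocorticoid receptor targets, all detected, the metal-binding proteins Mt1 (369 and 363 TPM) and Mt2 (340 and 351 TPM) and the transcription factor Klf9 (54.4 and 60.8 TPM) stood highest. The co-chaperone Fkbp5, itself a target, had 27.8 TPM in replicate 1 and 35.4 TPM in replicate 2.

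The thyroid hormone receptors differed from each other more than most pairs of detected relatives. Thra had 389 TPM in replicate 1 and 415 TPM in replicate 2, in the top 0.413% of protein-coding genes by mean TPM. Thrb had 20.9 and 22.8 TPM. The log2 ratio of Thra over Thrb was 4.21 and 4.19 (4.20 ± 0.02, SD, n = 2), or 18.4-fold.

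Most Thra signal lay on the splice form that does not bind thyroid hormone. Thra-201 codes for 492 residues, the length of the form known as a non-hormone-binding variant, and had 228 TPM in replicate 1 and 250 TPM in replicate 2. Thra-202 codes for 410 residues, the hormone-binding form, and had 42.4 and 47.6 TPM. The ratio of Thra-201 over Thra-202 was 5.31 ± 0.0937 (SD, n = 2), and 5.22 ± 0.182 in the alignment-free table. Thra-203, whose annotated coding region is incomplete, had 96.0 and 99.0 TPM. Thra-201 and Thra-203 are the transcripts whose last exon reaches Nr1d1, and together they held 83.7 ± 0.547% of Thra TPM.

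**Figure D2:**
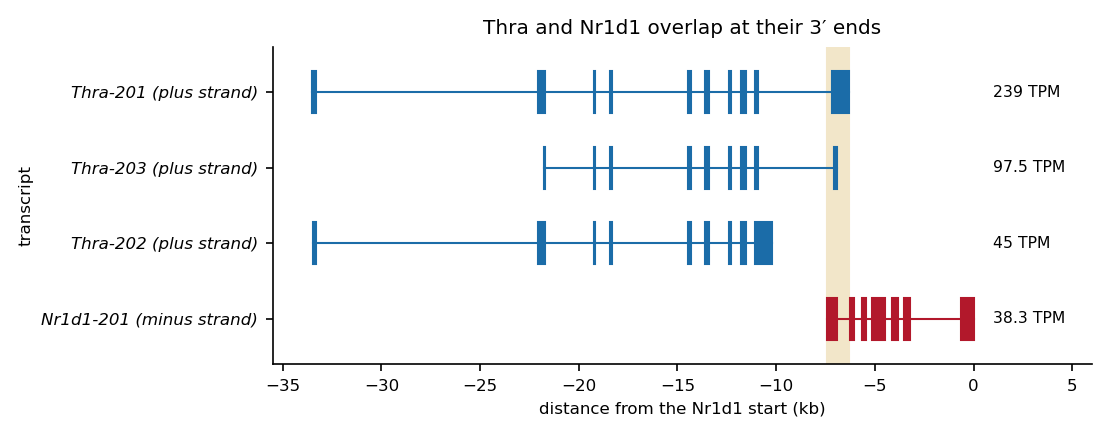
Exons (boxes) and introns (lines) of the 3 leading Thra transcripts and of Nr1d1-201, drawn by distance from the Nr1d1 start in kb, with mean TPM at the right and the gene overlap shaded. Thra-201 and Thra-203 run into the shaded 1075 bases, and Thra-202 ends before them.

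Thra (chromosome 11, 98740638 to 98769006, plus strand) and Nr1d1 (98767932 to 98775333, minus strand) share 1075 bases at their 3′ ends. The libraries kept strand, per the labels' protocols, but whether the counting used it is not given in the sources used here, so the values of both genes in the overlap are uncertain. Rara lies on the plus strand in the same interval, and the 3 receptors span 234 kb with 5 other protein-coding genes. A second such group lies on chromosome 14, where Rarb, Thrb and Nr1d2 span 1808 kb (16430839 to 18239127) with 1 other protein-coding gene. Each group holds a thyroid hormone receptor, a retinoic acid receptor and a REV-ERB. The chromosome 11 member was higher for Thra over Thrb and, by 0.21 on the log2 scale in each library, for Nr1d1 over Nr1d2. Rara and Rarb had a log2 ratio of 0.02 in replicate 1 and 1.58 in replicate 2, so their order was not set.

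Genes that deliver thyroid hormone were present, and 10 of 11 were detected. Crym, which binds thyroid hormone in the cytosol, had 92.4 and 106 TPM, and the transporter subunit Slc3a2 had 71.6 and 73.9 TPM. Dio2, which makes the active hormone, had 15.6 and 16.9 TPM, and Dio3, which inactivates it, had 1.94 and 2.81 TPM. Ttr, the hormone carrier made by choroid plexus, had 1151 TPM in replicate 1 and 174 TPM in replicate 2. It is itself among the 12 choroid plexus markers and holds most of their summed TPM.

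The REV-ERB repressors stood above the ROR activators that share their DNA sites. Nr1d1 had 40.3 and 42.0 TPM, and Nr1d2 had 34.8 and 36.3 TPM. Both are heme-binding repressors of the circadian clock. Rora had 16.9 and 16.6 TPM, and Rorb had 8.90 and 8.52 TPM. Rora exceeded Rorb by 0.94 ± 0.03 on the log2 scale (SD, n = 2). Of 12 clock genes listed for ROR and REV-ERB control, 11 were detected, led by the output factors Tef (109 and 108 TPM), Dbp (57.6 and 60.6 TPM) and Bhlhe40 (50.8 and 55.1 TPM). Arntl, the core activator that these receptors control, had 12.9 and 12.6 TPM.

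Among retinoid receptors, Rxrb and Rxra were steady and Rxrg and Rarb were not. Rxrb had 32.8 and 31.6 TPM, and Rxra had 14.3 and 14.4 TPM. Retinoid X receptors are the shared partners of thyroid hormone, retinoic acid, oxysterol and PPAR receptors. Rxrg had 4.64 TPM in replicate 1 and 2.43 TPM in replicate 2. Of the retinoic acid receptors, Rara had 7.64 and 8.53 TPM, Rarg 8.71 and 8.21 TPM, and Rarb 7.51 and 2.86 TPM. Thus Rara and Rarg overlapped between libraries, and Rarb was just below both in replicate 1 and far below both in replicate 2. Rarg carried the widest estimate among detected members, with a mean coefficient of quartile variation of 0.199, beside 0.00767 for Thra. By posterior mean TPM Rarg had 14.2 and 13.2 TPM, and Rara 8.25 and 9.09 TPM, and on that scale they did not overlap.

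Of 17 genes of retinoid handling 12 were detected. The carriers Fabp5 (59.4 and 70.1 TPM) and Fabp7 (29.5 and 30.3 TPM) stood highest, with the retinaldehyde dehydrogenase Aldh1a1 (17.4 and 21.2 TPM). Aldh1a2, another such enzyme, had 6.04 TPM in replicate 1 and 3.77 TPM in replicate 2, and the binding protein Crabp2 had 3.12 and 1.74 TPM. Of 10 retinoic acid receptor targets 7 were detected, led by Nrip1 (20.4 and 21.9 TPM), which is also a corepressor, and by Dhrs3 (20.9 and 17.1 TPM) and Stra6 (8.09 and 8.22 TPM).

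Among the lipid sensors the broadly expressed forms led. Nr1h2, liver X receptor beta, had 26.5 and 25.5 TPM, and Nr1h3, liver X receptor alpha, had 2.58 and 1.64 TPM. Both respond to oxysterols and control cholesterol export. Ppard had 11.9 and 12.1 TPM, Ppara 1.85 and 1.75 TPM, and Pparg, the adipocyte receptor, 0.93 and 1.69 TPM. Pparg thus passed 1 TPM in replicate 2 alone and was not counted as detected. The log2 ratio of Nr1h2 over Nr1h3 was 3.66 ± 0.42 and that of Ppara over Ppard was -2.74 ± 0.08 (SD, n = 2). Cyp46a1, which makes the main oxysterol of neurons, had 75.7 and 73.1 TPM. The LXR target list had 11 of 13 genes detected, led by the lipid carrier Apoe (1791 and 1667 TPM), then Fasn (94.0 and 99.5 TPM) and Scd1 (64.3 and 65.6 TPM) of fatty acid synthesis. The PPAR target list had 11 of 14, led by the mitochondrial carrier Ucp2 (70.4 and 69.1 TPM) and by the lipase Lpl (29.9 and 34.3 TPM).

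The estrogen-related receptors, orphans that control mitochondrial genes, were led by Esrra. Esrra had 23.4 and 24.2 TPM, Esrrg 5.99 and 6.19 TPM, and Esrrb 0.84 and 0.83 TPM. The log2 ratio of Esrra over Esrrg was 1.96 in replicate 1 and 1.97 in replicate 2. Their coactivator Ppargc1a had 17.6 and 20.7 TPM.

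The NR2 orphan receptors were the second group by summed TPM, summing to 120 TPM in replicate 1 and 123 in replicate 2. Nr2c2, the testicular receptor known also in brain, had 37.7 and 39.4 TPM, and its relative Nr2c1 had 4.49 and 3.87 TPM. Nr2c2 exceeded Nr2c1 by 3.21 ± 0.20 on the log2 scale (SD, n = 2). Nr2f1 and Nr2f2, the COUP transcription factors that pattern cortex and interneurons, had 29.9 and 33.7 TPM and 23.9 and 21.8 TPM. Nr2f6, a related repressor, had 18.0 and 17.3 TPM. Nr2e1, a regulator of neural stem cells, had 5.84 and 6.70 TPM. Its photoreceptor relative Nr2e3 had 0 counts in both libraries.

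The NR4A receptors lay close together within each library and moved together between libraries. Nr4a1 had 16.1 TPM in replicate 1 and 22.4 TPM in replicate 2, Nr4a2 had 15.2 and 18.7 TPM, and Nr4a3 had 16.5 and 23.7 TPM. Every NR4A value in replicate 1 was below every value in replicate 2. Within a library the log2 ratio of Nr4a1 over Nr4a2 was 0.17 ± 0.12, and that of Nr4a1 over Nr4a3 was -0.06 ± 0.03 (SD, n = 2). The Nr4a1 over Nr4a3 ratio turned to 0.063 on protein-coding transcripts alone, so the order of Nr4a1 and Nr4a3 was not set.

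Steroidogenic and bile acid receptors were at or near the floor. Nr6a1, the germ cell nuclear factor, was the detected member of the NR5 and NR6 group, at 4.43 and 4.08 TPM. Nr5a1 and Nr5a2, which control steroid and bile acid synthesis, had 5 and 3 counts and 7 and 1 counts. The bile acid receptor Nr1h4 had 3 and 9 counts, the vitamin D receptor Vdr 9 and 6 counts, and the lanosterol receptor Nr1h5 1 and 0 counts. Nr0b1 and Nr0b2, which lack the DNA-binding domain, had 0 and 1 counts and 2 and 0 counts. These levels were not detectable beyond a few counts at this depth. Altogether 11 members missed the threshold, among them Pparg, Esrrb and Esr2 above.

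The libraries were compared gene by gene through the log2 ratio of replicate 1 over replicate 2 of TMM-scaled expected counts, where the mean count reached 20. An exact binomial test conditional on the summed counts, two-sided and Benjamini-Hochberg adjusted over 16971 genes, set each ratio against counting error alone. It compares these 2 libraries, not conditions. Of 35 members tested, 3 were more than 1.5-fold apart, beside 6.78% of all genes tested, and all 3 were higher in replicate 1, beside 5.01% (1.76% were higher in replicate 2). The exact test called 10 members, beside 18.4% of all genes, 5 higher in replicate 1 (9.13%) and 5 higher in replicate 2 (9.29%). The median absolute log2 ratio was 0.14 for members and 0.12 for all genes, and 25 members were under 0.25.

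**Figure D3:**
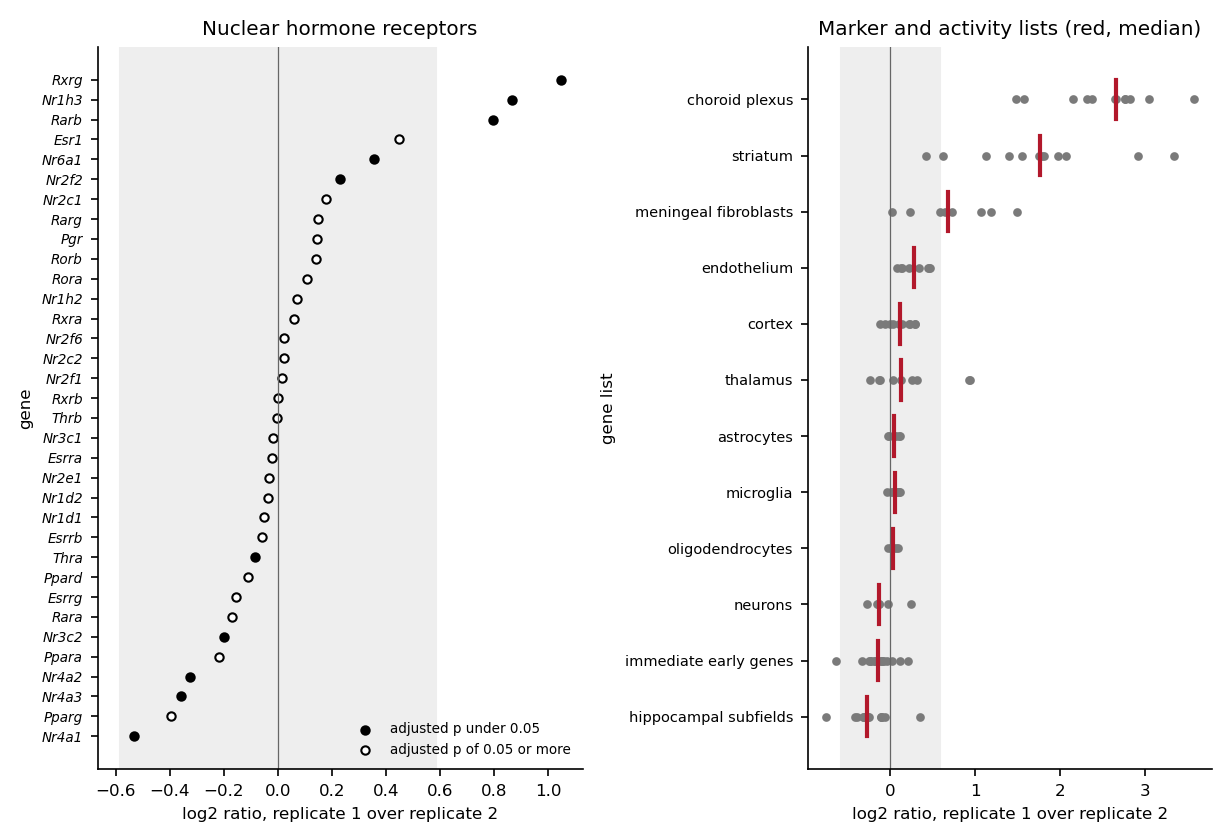
Log2 ratio of replicate 1 over replicate 2 for 34 of the 35 receptors tested (left; filled circles have an adjusted p under 0.05 by the exact test) and for genes of 12 marker and activity lists (right; red bars are list medians), with the range within 1.5-fold shaded. Rxrg, Nr1h3 and Rarb lie right of the shading and Nr4a1 lies lowest, and the choroid plexus and striatum lists lie far to the right. The hypothalamic markers are not among the 12 lists drawn.

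Rxrg had 161 counts in replicate 1 and 85 counts in replicate 2, a log2 ratio of 1.05 (exact test, adjusted p = 7.46e-07). Rarb had 251 and 158 counts, a log2 ratio of 0.79 (exact test, adjusted p = 1.07e-06). Nr1h3 had 67 and 40 counts, a log2 ratio of 0.86 (exact test, adjusted p = 0.0188). All 3 are receptors for lipid or retinoid ligands, and none had more than 251 counts in a library. Rxrg and Rarb are known for high expression in the striatum. The 12 striatal markers were all higher in replicate 1, with a median log2 ratio of 1.77, none at 0 in either library. The dopamine receptor Drd1 had 10.2 TPM in replicate 1 and 3.82 TPM in replicate 2, and the adenosine receptor Adora2a had 6.96 and 0.76 TPM. All 12 choroid plexus markers were higher as well, with a median log2 ratio of 2.65. The 8 meningeal fibroblast markers were also higher, with a median of 0.68. So were the 5 hypothalamic markers tested, of 12 listed, with a median of 5.54. Of these, Avp (257 and 5 counts), Pmch (107 and 2 counts) and Sim1 (42 and 0 counts) reached the mean count of 20 through replicate 1 alone. The direction and size of this median therefore follow in part from the filter. Of 9 thalamic markers 6 were higher and 3 lower, with a median of 0.12. The part of these tissues in the receptor ratios was not tested.

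For Rarb the TPM ratio was larger than the count ratio. On TPM the log2 ratio was 1.39. The short transcript Rarb-204 of 360 bases held 2.20 TPM in replicate 1 from 10.4 counts, against 0 in replicate 2. The full-length Rarb-201 had 3.68 and 2.57 TPM. In the alignment-free table Rarb-204 was at 0 in both, and the count-based log2 ratio of the gene was 0.81.

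The 5 members lower in replicate 1 included the 3 NR4A genes. Nr4a1 had 647 counts in replicate 1 and 1023 counts in replicate 2, a log2 ratio of -0.53 (exact test, adjusted p = 5.35e-12). Nr4a3 had 1581 and 2217 counts, a log2 ratio of -0.36 (exact test, adjusted p = 1.46e-12), and Nr4a2 804 and 1100 counts, a log2 ratio of -0.32 (exact test, adjusted p = 2.43e-05). None of the 3 passed 1.5-fold. Of 16 immediate early genes, which neurons switch on within minutes of activity, 13 were lower in replicate 1 than in replicate 2, with a median log2 ratio of -0.14. The test called 5 of them, all lower in replicate 1, beside 9.29% of all genes, and these were Arc (19.1 and 30.5 TPM), Junb (21.4 and 27.3 TPM), Egr3 (24.9 and 29.9 TPM), Egr1 (20.2 and 24.9 TPM) and Fosl2 (17.8 and 19.0 TPM). Fos had 5.99 and 6.44 TPM and was not called. Homer1 (47.7 and 52.0 TPM) and Jun (35.0 and 38.3 TPM) were the highest of the list and were not called either.

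Nr3c2 and Thra were called with small ratios. Their log2 ratios were -0.20 (exact test, adjusted p = 1.00e-10) and -0.08 (exact test, adjusted p = 1.21e-05), the second a 1.06-fold difference on 13615 and 15777 counts. Hippocampal subfield markers moved the same way, with 14 of 15 lower in replicate 1, a median log2 ratio of -0.28, and 11 called lower and 1 called higher. Neuronal markers had 6 of 7 lower in replicate 1. Nr2f2 (0.23; exact test, adjusted p = 0.00401) and Nr6a1 (0.35; exact test, adjusted p = 0.0274) were higher in replicate 1. Nr3c1, by contrast, had a log2 ratio of -0.02 and was not called (exact test, adjusted p = 0.815). Among its targets 6 of 16 were called, beside 18.4% of all genes, all lower in replicate 1 (9.29%), among them Sgk1 (43.4 and 61.7 TPM), Zbtb16 (46.3 and 58.5 TPM) and Fkbp5. Hsd11b1 was called too, with a log2 ratio of -0.53. The part of tissue composition in these differences was not tested.

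Coregulators were detected throughout, 22 of 22 coactivators and 16 of 16 corepressors. Corepressors were led by Ncor1 (118 and 121 TPM), a scaffold of unliganded receptors, and by Trim28 (95.7 and 109 TPM). Coactivators were led by the methyltransferase Prmt1 (68.5 and 77.3 TPM), Ncoa1 (55.9 and 58.0 TPM) and Ncoa4 (44.7 and 45.0 TPM). The median coactivator stood at 29.7 ± 1.38 TPM and the median corepressor at 30.4 ± 0.382 TPM (SD, n = 2), both above the median receptor. The test called 1 coactivator higher and 6 lower in replicate 1, and 1 corepressor higher and 4 lower, beside 9.13% of all genes higher and 9.29% lower.

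The spread of TPM over transcript classes differed among receptors. The median coding share of the 33 detected members was 87.8 ± 0.149% (SD, n = 2), beside 87.3 ± 0.368% for 13294 detected protein-coding genes. The share was 100% for Rara, with 5 of 7 transcripts protein-coding, and for Nr3c1, Nr2c1 and Rxrg, whose annotated transcripts are all protein-coding. By the mean of both libraries it was lowest for Nr6a1, at 53.6% in replicate 1 and 43.4% in replicate 2, followed by Nr1h3 at 68.9% and 50.9%. In replicate 1 alone the detected members Ppard (62.1%), Rxrb (63.6%) and Ppara (68.1%) were below Nr1h3. Retained-intron transcripts held 30.2% and 29.4% of Nr1d2, a share that hardly moved between libraries.

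Within each library the tables named the same leading transcript for 24 of the 33 detected members, beside 71.3% of all genes with several transcripts. For 3 of the 24, Nr3c1, Rara and Rarg, that leader changed between libraries, so 1 transcript led throughout in 21 members. The 9 members whose tables named different leaders were Esr1, Esrrg, Nr1h3, Nr2f2, Nr3c2, Nr4a1, Ppara, Rxrg and Thrb. In Nr4a1 the alignment-free table put 0.506 and 8.29 TPM on Nr4a1-201, against 11.6 and 16.2 TPM in the alignment-based table. In the alignment-free table Nr4a1-202, which has an upstream first exon and codes for the same 601 residues, led with 11.7 and 11.3 TPM.

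At gene level the quantifications were close. Alignment-free counts were 1.14 ± 0.000944 times the alignment-based ones in the median of 29 members with at least 100 counts (SD, n = 2), with a range of 1.06 to 1.29, and 1.15 ± 0.00236 times in 11912 protein-coding genes. All 33 detected members lay within 1.5-fold between tables by mean TPM. Among low members the ratio was larger. Esr2 had 39.2 and 38.5 alignment-free counts, against 10 and 8 alignment-based ones, and Nr5a2 had 31.0 and 23.0, against 7 and 1.

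**Figure D4:**
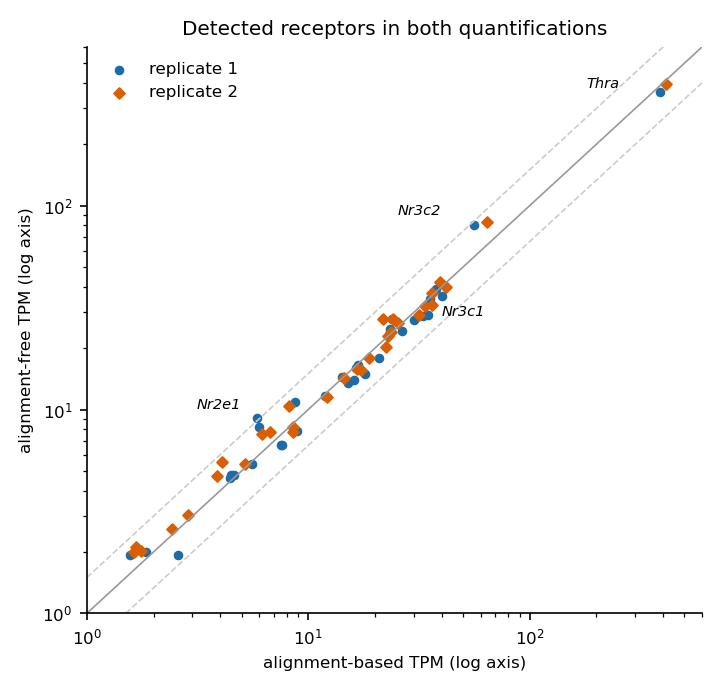
Alignment-free against alignment-based TPM of 32 of the 33 detected receptors, both axes logarithmic, with circles for replicate 1 and diamonds for replicate 2; the solid line is equality and the dashed lines are 1.5-fold. Most points follow the line over the whole range, Nr3c2 lies toward the upper dashed line, and Nr2e1 in replicate 1 lies beyond it (9.07 against 5.84 TPM).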

How the data were processed

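Total RNA of 2 hippocampal libraries was sequenced after removal of ribosomal RNA, with 300 ng of RNA per library and ERCC spike-ins, per the labels. Reads were assigned to mm10 genes of GENCODE M21, as the deposited notes state. Which aligner and quantifier were run is "not given in the sources used here". Expected counts, estimates per gene and transcript, were deposited with TPM and FPKM values that the authors scaled for length and depth, per the file headers. The authors' transcript table also gives the percent of a gene's TPM on each transcript. The deposited gene table holds a score per gene, the coefficient of quartile variation of its TPM, and posterior mean TPM. Per the file headers, the alignment-free table gives estimated counts and TPM per transcript, summed here per gene.

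Counts were rounded for TMM scaling in edgeR 4.0.16 and for DESeq2 1.42.0 size factors (R 4.3.3), and log2 ratios used a prior count of 0.5. With 1 sample per library and 1 group, no model of biological variation was tested between conditions. The remaining steps used Python 3.11.15, numpy 2.4.6, pandas 2.3.3, scipy 1.17.1 and matplotlib 3.10.9, and were tested on simulated data. P-values, floors and their adjustment cover counting error only. Detected members are named with values and the others by counts, and of each pathway list the 3 highest detected genes are named; further genes were chosen after their values were seen. Members and lists were chosen with earlier results of these data known. Alternatives covered thresholds, pseudocounts, scalings, the other deposited units and leaving out each library. RefSeq promoters matched 40 members and not 4. Some items, among them 1 member that the counts include, are not reported here.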

Additional observations from a re-analysis of the deposited data

How the results depend on the processing

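Counts of detected members lay between 29 and 35 under every threshold and unit tried, and between 33 and 34 with either library left out, against 33. Their median TPM was 7.90 in the alignment-free table, 7.89 by posterior mean TPM and 15.9 over detected members, and 7.46 to 7.58 with a library left out, against 7.51. The log2 ratio of Nr3c1 over Nr3c2 was -1.18 in the alignment-free table, -0.50 on protein-coding transcripts, -0.37 on those of the alignment-free table and -0.82 to -0.67 with a library left out, against -0.74. Both settings on protein-coding transcripts were added after seeing the data. Nr4a1 over Nr4a3 reversed to 0.063 and 0.049 on protein-coding transcripts of the 2 tables. Over the other pairs and settings, leaving out libraries aside, 77 values moved by under 1 SD of the 2 libraries and 53 by more. Rara over Rarg, within its spread at -0.067, was 0.45 and 0.11 on protein-coding transcripts of these tables and 0.055 without replicate 1, and -0.66 by posterior mean TPM. Ppara over Pparg was -0.24 on protein-coding transcripts of the alignment-free table, against 0.52. Rara over Rarb was 1.58 without replicate 1 and 0.025 without replicate 2, against 0.80.

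Spike-in scaling shifted the median log2 ratio of all genes by -0.27. Under it 6 members passed 1.5-fold, of which replicate 1 was the higher library in 2 and replicate 2 in 4, against 3 and 0. Of all 16971 genes tested, 398 then passed it higher in replicate 1 and 937 higher in replicate 2. The exact test then called 23 of 35 members, with replicate 1 the higher in 2 and replicate 2 in 21, against 5 and 5. Among all 16971 genes it called 440 higher in replicate 1 and 9597 higher in replicate 2, so most genes shifted the same way. Nr2f2 reversed to -0.037. All 3 NR4A genes stayed lower in replicate 1 under the 5 other scalings and tables, as Rarb and Rxrg stayed higher. Nr1h3 lost its call under spike-in scaling (exact test, adjusted p = 0.0679) and Nr6a1 there (0.582) and on alignment-free counts (0.188). At a 2-fold threshold 1 member, Rxrg, remained apart. The count ratio between tables was 1.15 with members of at least 20 counts, and 1.14 with either library left out, against 1.14. The same transcript led in 25 to 27 members when either library was left out, against 24. Leaving out a library was not possible for ratios between libraries, and no paired analysis was possible because there is 1 group. Members under 20 counts were not tested, and the cause of these changes was not tested.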

Other observations

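Nr5a1 and Nr6a1 are neighbours on chromosome 2 with no other protein-coding gene in the 235 kb they span. Nr6a1 had 296 counts in replicate 1 and 253 in replicate 2, and Nr5a1 had 5 and 3.

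Nr2e1, whose promoter was the one among members with the palindrome TGACGTCA, had 9.07 TPM in replicate 1 and 7.75 TPM in replicate 2 in the alignment-free table, against 5.84 and 6.70 TPM in the alignment-based one. Its leading transcript was the same in both.

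Processed transcripts held 27.7% of Nr2f6 TPM in replicate 1 and 22.5% in replicate 2, and 27.8% and 32.0% of Rarg TPM.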
